A study of Rattus norvegicus with 6 samples.

Results

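miR-193a and miR-365 are made from neighbouring genes on rat chromosome 10. miR-193b, a paralogue of miR-193a, shares its main arm's target-recognition sequence with miR-193a. The miRNAs described here are all those on the array named as an arm of miR-193a, miR-193b or miR-365. The rule found 4 of the 719 rat miRNAs on the array: rno-miR-193a-5p and rno-miR-193a-3p, and the 5p and 3p arms of miR-365. No probe carried the name of miR-193b, which was not analysed here. The arms were chosen by name, and the 2 arms of miR-193a singled out, with their scaled spot signals on the control and interleukin-8 (IL-8) arrays already known, so the choice counts as selected on that contrast. Their levels and changes are therefore given as a description, and no p-value of an arm is printed. Where the text says whether arms passed a threshold, nothing is read from it.

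The cells were rat primary skeletal muscle cells (RSkMC) from the limb muscle of newborn animals, frozen at their second passage and bought from a culture collection. All 6 samples spent 11 days differentiating in medium containing 2% horse serum, and each was run on 1 Agilent array. In one group nothing was added (control, n = 3 arrays), and in the other IL-8, a chemokine that attracts neutrophils, was present at 1 ng/ml (n = 3 arrays). The growth protocol in the labels mentions IL-8 for every sample, while titles, agent labels and the series' design call 3 of them untreated, and these were followed.

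The control arrays shared a slide and the IL-8 arrays shared a different one, so slide and treatment cannot be told apart in any comparison below. The labels do not say that the samples of a group were separate cultures, so p-values and intervals here cover the spread among these samples alone, and that spread may be technical. Their number limits the precision. Of the 7 striated muscle miRNAs in the marker list, among them miR-1-3p, miR-133a-3p and miR-206-3p, none was well above background on any array. Their highest probe signal was 9.23, while the lowest signal called well above background ran from 12.3 to 17.1 between arrays. All 6 markers of fibroblasts and smooth muscle, such as miR-143-3p and miR-214-3p, were tested, and all 6 blood, 2 endothelial, 7 epithelial and 3 neural markers were not well above background on any array. The defining miRNAs of the labelled cell type were thus not among those detected.

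A miRNA is cut from a hairpin precursor whose 2 sides can each give a mature strand, the 5p and the 3p arm, and usually one of them is kept while the other is degraded. The kept strand guides a repressor complex to messenger RNAs that pair with its seed, the bases near its 5′ end. In mice miR-193b and miR-365 are known from brown fat, a heat-producing tissue whose precursor cells are related to those of muscle, and forced expression of miR-193b in muscle precursors has been described to turn them from muscle toward brown fat. miR-193a-3p is known as a growth-restraining miRNA that targets the receptor KIT and the survival protein MCL1, and miR-365-3p targets the histone deacetylase HDAC4.

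The mature sequences from RefSeq (build GRCr8) are shown because the seed decides which arms can act alike. Capitals mark the seed, bases 2 to 8.
miR-193a-5p: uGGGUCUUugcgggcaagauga
miR-193a-3p: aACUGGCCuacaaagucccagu
miR-193b-5p: gGGGUUUUgagggcgaga
miR-193b-3p: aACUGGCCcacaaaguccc
miR-365-5p: gAGGGACUuucaggggc
miR-365-3p: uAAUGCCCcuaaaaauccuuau
The seed of miR-193a-3p is shared with miR-193b-3p and with no other of the 693 mature rat names in that table. The 2 sequences are the same at 18 of the 19 bases that both have, and the difference is U9C, counted from the 5′ end of miR-193a-3p. No other name in the table has the seed of miR-193a-5p, miR-365-5p or miR-365-3p, and the 2 arms of miR-193a have different seeds. All 4 arms on the array matched an entry of the table.

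Both arms of miR-193a come from 1 hairpin of 86 bases on the plus strand at chr10:65170317-65170402 (GRCr8), shown with the 2 arms in capitals.
Mir193: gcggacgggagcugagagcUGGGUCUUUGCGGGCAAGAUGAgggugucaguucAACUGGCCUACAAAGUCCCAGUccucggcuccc
The Mir365b hairpin follows on the same strand and chromosome. On rn4, the build of the array files, 13844 bases lie between the positions of the miR-193a-3p and the miR-365-5p probes. In the RefSeq gene table (GRCr8) both hairpins fall within the span of the protein-coding gene Faul2, and Mir193b, elsewhere on chromosome 10, falls within the long non-coding RNA gene LOC102547286. Exon and intron limits of these genes were not used here.

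The probes are shown because they are nested, and because only the longer ones for miR-193a-5p gave a signal above background. Every base of each probe is complementary to its mature arm, so all are in capitals.
miR-193a-3p, 16 bases: ACTGGGACTTTGTAGG
miR-193a-3p, 17 bases: ACTGGGACTTTGTAGGC
miR-193a-5p, 11 bases: TCATCTTGCCC
miR-193a-5p, 12 bases: TCATCTTGCCCG
miR-193a-5p, 13 bases: TCATCTTGCCCGC
miR-193a-5p, 14 bases: TCATCTTGCCCGCA
The longer miR-193a-3p probe pairs with bases 6 to 22 of that arm, at chr10:65901106-65901122 in rn4, and the longest miR-193a-5p probe with bases 9 to 22, at chr10:65901075-65901088. The base that differs in miR-193b-3p lies inside the stretch that both miR-193a-3p probes cover. How much miR-193b-3p adds to their signal was not tested. Probes of one arm overlap in sequence and lie on the same arrays, so their agreement is no independent evidence.

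miR-193a-3p was easily seen on every array and was the most variable of the arms among the control arrays. On its 17-base probe the background-subtracted signal was 368, 464 and 762 on control arrays 1, 2 and 3, and 706, 763 and 668 on IL-8 arrays 1, 2 and 3. Control arrays 1 and 2 were low, whereas control array 3 reached the level of the IL-8 arrays. The 16-base probe gave 108, 138 and 235 in control and 229, 249 and 214 with IL-8, with the same 2 arrays low. Within an array the coefficient of variation between spots ran from 2.77% to 7.38% on the 17-base probe, which covers spot error only and not the spread between samples. Its spots lay between 349 and 384 on control array 1, between 412 and 524 on control array 2 and between 697 and 849 on control array 3, while those of the 3 IL-8 arrays lay between 603 and 802. The spots of control array 3 thus lay within or above the range of the IL-8 spots. The signal of the longer probe was 3.24 to 3.39 times that of the shorter on the control arrays and 3.07 to 3.12 times on the IL-8 arrays. This shift was not particular to the arm. For the 2 probes of miR-365-3p the ratio was 2.28 to 2.32 in control and 2.23 to 2.24 with IL-8.

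**Figure D1:**
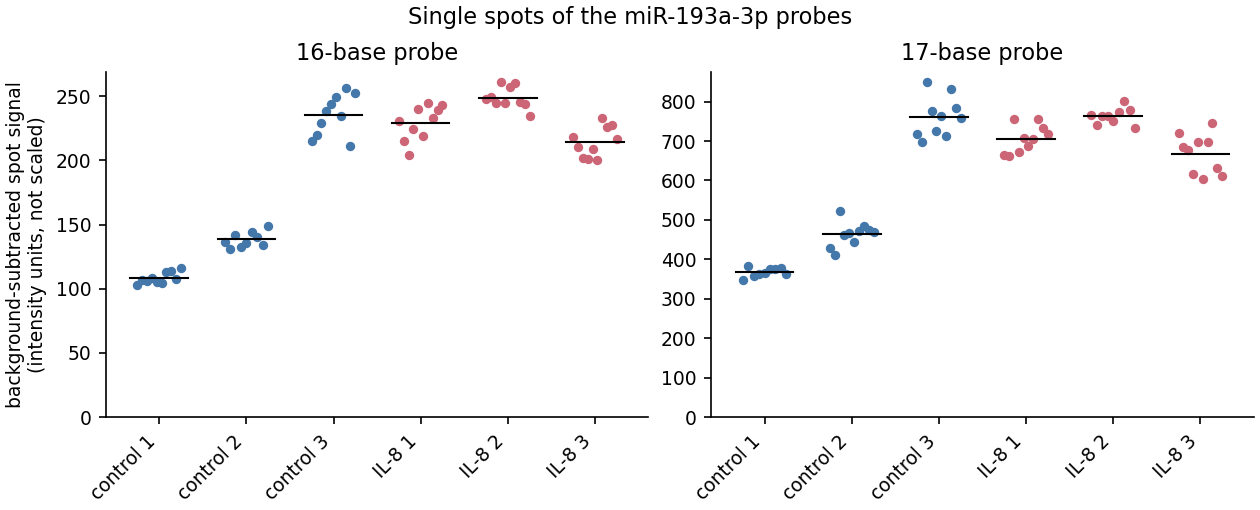
Background-subtracted signal (intensity units, y axis from 0) of each spot of the 16-base and 17-base miR-193a-3p probes on the 6 arrays (x axis), without outlier spots; lines are array means. On the 17-base probe control arrays 1 and 2 average 368 and 464, and control array 3 averages 762, within the range of IL-8 spots.

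Levels below are log2 of the probe signal divided by the array's 75th percentile, taken from 264 probes that exceeded background on every array, and an arm's level is the mean of its usable probes. This removes any change shared by all miRNAs. On this scale miR-193a-3p stood at -1.14, -0.91 and -0.23 on the control arrays and at -0.50, -0.33 and -0.51 on the IL-8 arrays. The groups overlapped, since control array 3 was above every IL-8 array. The means were -0.76 ± 0.47 (SD, n = 3) in control and -0.45 ± 0.10 (SD, n = 3) with IL-8, a log2 change of 0.31 ± 0.21 (SE) in the limma fit, or 1.24-fold (95% CI 0.879 to 1.75). Leaving out control array 3, the array that goes against the contrast, raised the change to 0.58, or 1.49-fold, and the arm was then 1 of 29 miRNAs called by limma. Nothing is read from that call, since the arm was chosen with this contrast known. Leaving out control array 1 lowered the change to 0.14, and the arm did not pass.

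The spread of miR-193a-3p in control ranked 2 among the 167 tested miRNAs, behind miR-136-5p. Its control SD was 0.47, against a median of 0.084 over the tested miRNAs. Next in rank were miR-3584-5p at 0.47, miR-322-5p at 0.46 and miR-322-3p at 0.42, so such a spread was not particular to the arm. The highest control array of miR-193a-3p was 1.88 times its lowest, while with IL-8 that ratio was 1.13. Control array 3 lay 0.79 above the mean of the other control arrays. Over all tested miRNAs the median of that difference was 0.08, and only miR-322-5p, a miRNA of the miR-15 and miR-16 family, had a larger one, also 0.79. Close behind were miR-542-3p at 0.72, miR-136-5p at 0.71 and miR-322-3p at 0.71. The IL-8 mean of miR-193a-3p lay 0.57 above control arrays 1 and 2 and 0.22 below control array 3 (difference -0.22).

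**Figure D2:**
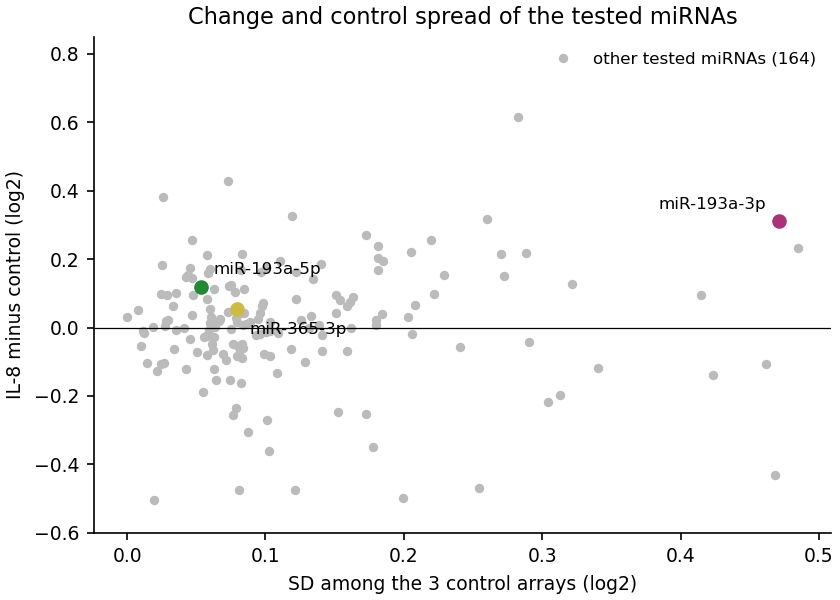
Each point is 1 of the 167 tested miRNAs, with the SD among the 3 control arrays (log2, x axis) and the IL-8 minus control difference (log2, y axis); the 3 arms are coloured. miR-193a-3p lies far to the right at an SD of 0.47, near a few other miRNAs, while miR-193a-5p and miR-365-3p lie among the bulk at 0.05 and 0.08.

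miR-193a-5p, the other strand of the same hairpin, was close to the limit of detection, and control array 3 did not stand above the other control arrays. Only its 14-base probe was usable, with signals of 19.9, 23.1 and 23.2 in control and 30.1, 31.2 and 23.7 with IL-8. Before scaling every control array was thus below every IL-8 array, as for miR-365-3p. The probe was well above background on all 6 arrays, with 4 of 5 spots on control array 1 and 5 of 5 on the others. The 13-base probe read 10.9, 14.4 and 13.0 in control and 21.8, 17.5 and 12.7 with IL-8, and it was well above background on IL-8 arrays 1 and 2 alone. The 12-base and 11-base probes were below 0 on every array, from -9.77 to -3.53 and from -13.3 to -5.82. So the arm was seen only through its longer probes, and its value rests on 5 spots per array whose coefficient of variation reached 20.5%.

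The scaled level of miR-193a-5p was -4.47, -4.36 and -4.42 in control and -4.24, -4.14 and -4.51 with IL-8. IL-8 arrays 1 and 2 were above the control arrays and IL-8 array 3 below them, so the groups overlapped. The means were -4.42 ± 0.05 (SD, n = 3) and -4.30 ± 0.19 (SD, n = 3), a log2 change of 0.12 ± 0.10 (SE), or 1.09-fold (95% CI 0.927 to 1.27). With the normexp background, which adds 50 to every spot before scaling, the change was -0.09. The control spread ranked 134 among the 167 tested miRNAs and the IL-8 spread ranked 7. These ranks rest on 1 probe near the limit of detection. Its spots had a coefficient of variation of 16.8% to 20.4% on the control arrays. How far spot error sets the ranks was not tested, so they are not set against those of the 3p arm.

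As measured, with the 5p arm on 1 probe near the limit of detection, the 2 arms of miR-193a differed in which arrays were high. Their log2 difference within an array (3p minus 5p) was 3.33, 3.45 and 4.19 in control and 3.74, 3.80 and 4.0 with IL-8. Its size reflects probe brightness and is no ratio of amounts, so only its movement between arrays is used, and scaling by a single factor per array cancels in it. It was lowest on control arrays 1 and 2 and highest on control array 3, and the groups overlapped. It averaged 3.66 ± 0.47 (SD, n = 3) in control and 3.85 ± 0.14 (SD, n = 3) with IL-8, a change of 0.19. Without control array 3 the change was 0.46, and without control array 1 it was 0.03.

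**Figure D3:**
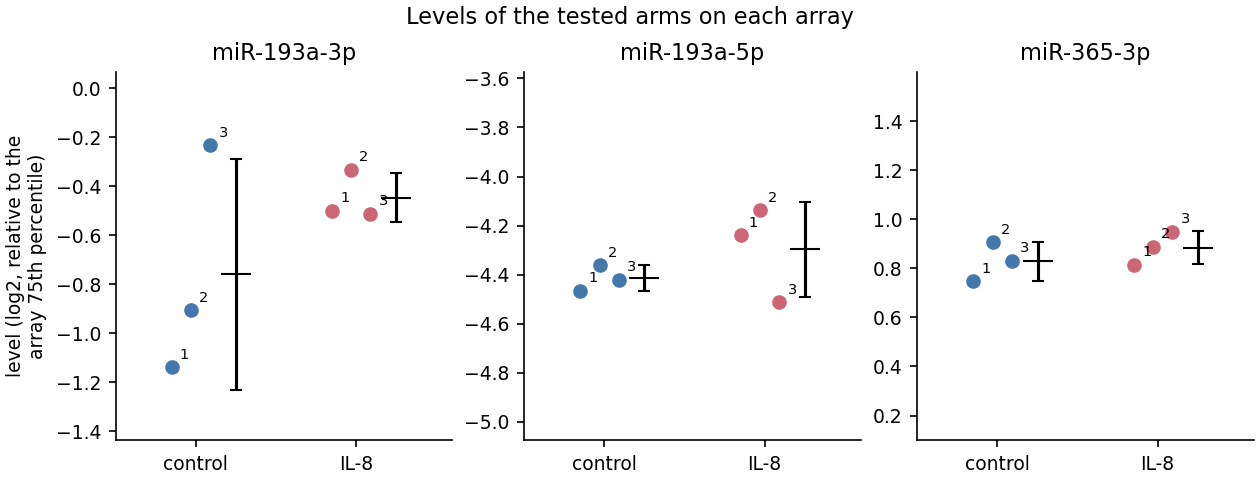
Level of miR-193a-3p, miR-193a-5p and miR-365-3p on each array (log2 relative to the array's 75th percentile; the 3 panels share the same span), with points numbered by replicate and bars for the mean and SD of 3 arrays. Control array 3 of miR-193a-3p, at -0.23, is above all IL-8 arrays, and no such array stands out for miR-365-3p.

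miR-365-3p, the arm of the neighbouring hairpin, was bright and even across arrays. Its 21-base probe read 1127, 1347 and 1336 in control and 1498, 1521 and 1558 with IL-8, and its 20-base probe read 485, 589 and 585 in control and 668, 679 and 698 with IL-8. Before scaling, every IL-8 array was above every control array on both probes. The 75th percentile of the arrays was also higher with IL-8, at 569, 549 and 540 against 440, 475 and 497 in control. After scaling the level was 0.75, 0.91 and 0.83 in control and 0.81, 0.89 and 0.95 with IL-8, and the groups overlapped. The means were 0.83 ± 0.08 (SD, n = 3) and 0.88 ± 0.07 (SD, n = 3), a log2 change of 0.06 ± 0.06 (SE), or 1.04-fold (95% CI 0.937 to 1.15). The low values of miR-193a-3p on control arrays 1 and 2 were not shared by miR-365-3p. Whether the neighbouring hairpins share a transcript was not tested, nor whether the miR-365-3p signal comes from that hairpin alone. The log2 difference between miR-193a-3p and miR-365-3p within an array was -1.89, -1.81 and -1.06 in control and -1.31, -1.22 and -1.46 with IL-8. It rose by 0.26 on average, by 0.52 without control array 3 and by 0.11 without control array 1.

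The other strand of the Mir365b hairpin, miR-365-5p, was not detected. Its probes of 13 and 14 bases averaged between -8.79 and -0.49 on the 6 arrays, and no spot was well above background. The 95th percentile of the negative control spots ran from 7.92 to 11.9 between arrays. The same held for miR-3549, which is no member. It was looked at because its RefSeq hairpin lies on the opposite strand over that of miR-193a, and its 19 bases are the reverse complement of bases of miR-193a-5p.
miR-3549: aUCUUGCCcgcaaagaccc
Its 2 probes averaged between -10.1 and -4.46, below the same percentile. These probes have 12 and 13 bases, and the 12-base probe of miR-193a-5p also read below 0 although that arm was seen by its 14-base probe, so a low amount of miR-3549 could have been missed.

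Of the 3 arms tested, 0 passed in the limma fit over 167 miRNAs (Benjamini-Hochberg, 0.05), and 0 had an unadjusted p under 0.05, against 41 of the 167 tested miRNAs. Over all tested miRNAs 10 passed (5.99%), 5 higher (2.99%) and 5 lower (2.99%). Groups did not overlap for 0 of the 3 arms, against 50 of the 167 tested miRNAs (29.9%). Nothing is read from these counts, since the arms were chosen with this contrast known. Without any scaling between arrays the fit called 2 of the 3 arms, against 51 of the 167 tested miRNAs. The 2 were miR-193a-5p at a change of 0.35 and miR-365-3p at 0.29. All 3 arms had an unadjusted limma p under 0.05 there, as did 92 of the 167. The median change of all tested miRNAs was then 0.24 in place of 0.02, and nothing is read from these calls either. miR-193a-3p had the largest change of the arms there, 0.54, and was not called.

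**Figure D4:**
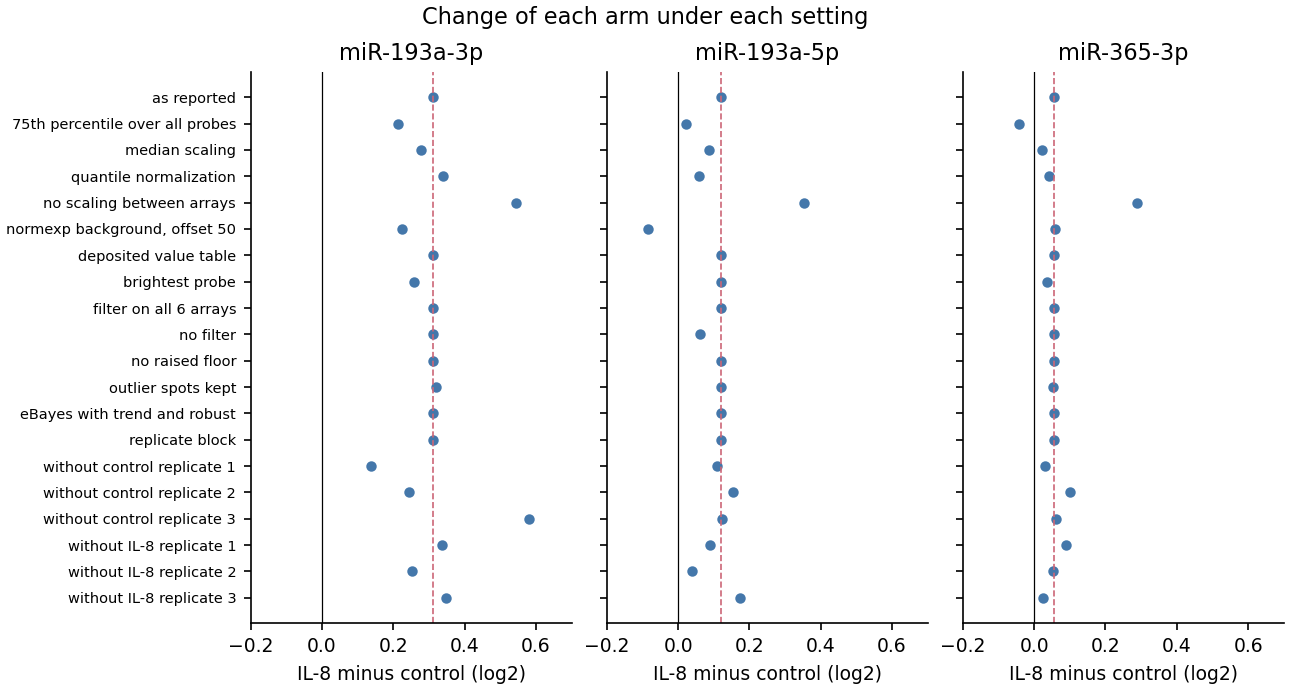
IL-8 minus control difference (log2, x axis) of each tested arm as reported (dashed line) and under 19 other settings (rows). miR-193a-3p stays above 0 in all of them, from 0.14 without control array 1 to 0.58 without control array 3; miR-193a-5p falls below 0 with the normexp background, and miR-365-3p with the 75th percentile over all probes.

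The miRNAs whose pattern over the 6 arrays lay nearest to that of miR-193a-3p were miR-376a-3p, miR-136-5p and miR-101a-3p. Likeness was the mean absolute difference of log2 levels, each centred on its own mean, and these values come from the same arrays, so they share any property of an array. The difference was 0.09, 0.10 and 0.12, against a median of 0.26 over the other tested miRNAs. miR-376a-3p and miR-136-5p belong to the imprinted miRNA region of chromosome 6, and miR-101a-3p is known for targeting the histone methyltransferase Ezh2. miR-136-5p stood at -3.62, -3.10 and -2.65 in control and at -3.02, -2.84 and -2.81 with IL-8. Its control array 1 was the lowest and control array 3 the highest, as for miR-193a-3p. miR-376a-3p stood at -3.56, -3.34 and -3.04 in control and at -3.06, -2.87 and -3.06 with IL-8, and miR-101a-3p at -2.43, -2.19 and -1.86 and at -1.95, -1.96 and -1.92. In all 3, control arrays 1 and 2 were below every IL-8 array and control array 3 was not. The sequences are shown to compare their seeds with that of miR-193a-3p.
miR-376a-3p: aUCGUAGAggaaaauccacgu
miR-101a-3p: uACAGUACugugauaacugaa
Neither seed is that of miR-193a-3p, nor do these 2 share a seed with each other, and their G and C content was 42.9% and 33.3%.

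**Figure D5:**
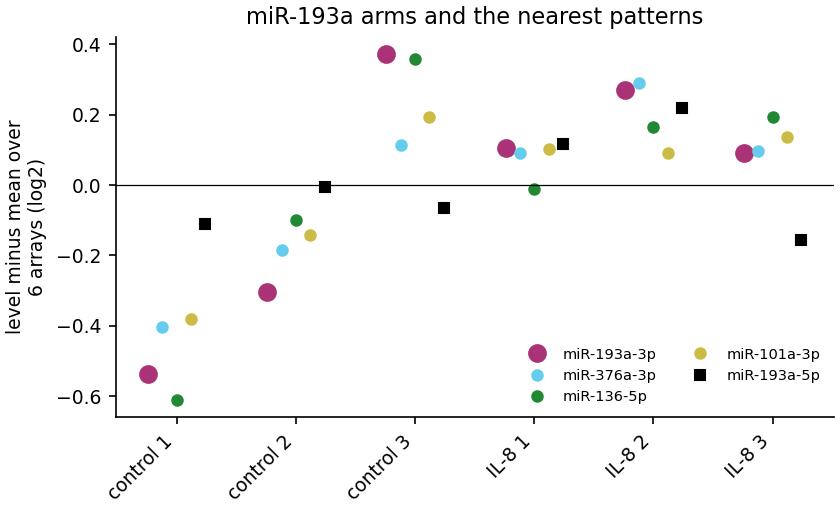
Level of each miRNA on each array minus its mean over the 6 arrays (log2, y axis), for miR-193a-3p, its 3 nearest patterns and miR-193a-5p; symbols are offset sideways for clarity. miR-193a-3p and its nearest patterns are low on control arrays 1 and 2 and above their mean on control array 3, where miR-193a-5p is slightly below its mean.

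Nearest to miR-193a-5p were miR-152-3p, miR-17-5p and miR-320-3p, with mean absolute differences of 0.07, 0.07 and 0.08 against a median of 0.13. Their own changes were 0.12, 0.08 and -0.02, and the sign turned under at least 1 setting for miR-17-5p and miR-320-3p. Nearest to miR-365-3p were miR-100-5p, miR-22-5p and miR-103-3p, at 0.02, 0.02 and 0.03 against a median of 0.08. These were steady miRNAs with changes of 0.04, 0.04 and 0.00, each of which turned sign under at least 1 setting. No miRNA was among the nearest of more than 1 arm.

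The brown fat lists here and below were chosen with earlier results of these data known, so their counts are given as a description. Of the other miRNAs described to promote brown or beige fat, the array carried 10 and 7 could be tested. IL-8 arrays had the higher mean for 5 and the lower for 2, and 0 passed (limma, Benjamini-Hochberg), with 1 at an unadjusted p under 0.05. Over all 167 tested miRNAs the mean was higher for 94 and lower for 73, and 41 had an unadjusted p under 0.05. The list's median log2 change was 0.10, against 0.02 over all tested miRNAs, and it was -0.0018 with the 75th percentile over all probes. miR-30c-5p, described to support brown fat genes, stood at -2.18, -2.07 and -1.96 in control and at -1.93, -1.84 and -1.86 with IL-8, a difference of 0.19 ± 0.07 (SE). miR-26a-5p stood at 1.16, 1.23 and 1.31 in control and at 1.35, 1.38 and 1.35 with IL-8, a difference of 0.13 ± 0.06 (SE). In both, control array 3 was the control array nearest to the IL-8 arrays, yet the groups did not overlap. These 2 are named for the smallest limma p in the list, and groups did not overlap for 50 of the 167 tested miRNAs (29.9%). The 2 members with the lower mean, not named, changed by -0.20 and -0.07. With the 75th percentile over all probes the differences were 0.10 for miR-30c-5p and 0.03 for miR-26a-5p, and with the normexp background 0.07 and 0.13.

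Of the miRNAs described to restrain brown or beige fat, the array carried 16 and 13 could be tested. The mean was higher with IL-8 for 3 and lower for 10, and 0 passed by limma, with 1 at an unadjusted p under 0.05, beside the same 94, 73 and 41 over all 167 tested miRNAs. Their median log2 change was -0.05, and it was 0.19 without scaling between arrays. miR-222-3p stood at -1.58, -1.56 and -1.71 in control and at -1.86, -1.73 and -1.74 with IL-8, a difference of -0.16 ± 0.06 (SE). Its groups did not overlap, which held for 50 of the 167 tested miRNAs (29.9%). Its cluster partner miR-221-3p stood at -0.06, 0.08 and -0.02 in control and at -0.19, -0.09 and -0.01 with IL-8, a difference of -0.10 ± 0.07 (SE). The groups of miR-221-3p overlapped. Both miRNAs target the cell cycle inhibitor p27, and both differences were above 0 without scaling. miR-133a-3p and miR-133b-3p, muscle miRNAs that repress the brown fat regulator Prdm16, were not well above background on any array. All 13 muscle-enriched miRNAs of the third list that the array carried were likewise untested for that reason.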

How the data were processed

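miRNA was measured on 1-colour arrays in 3 control and 3 IL-8 samples, grouped by title. The deposited values are spot intensities extracted by the authors with Agilent Feature Extraction 10.10.1.1 (per the submitters' processing notes), background-subtracted, spatially detrended and unscaled between arrays, per the file headers, so dim probes lie near or below 0. The deposited value table held the same software's total probe signal (100% of values equal within a relative tolerance of 1e-04), on a linear scale and not centred.

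Spots of a probe were averaged without outlier spots, divided by the array's 75th percentile over 264 probes, floored at a log2 level of -5.03, and log2 was taken. A probe was well above background when the software said so for over 50% of its spots, and usable when this held on all arrays of a group. A miRNA was the mean of its usable probes: 167 were tested and 552 left out. limma 3.58.1 in R 4.3.3 was fitted over all of them, tested on simulated data, with Benjamini-Hochberg adjustment at 0.05. Saturated rat miRNA spots numbered 0.

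Members and lists were chosen with earlier results of these data known. Named are every arm, its 3 nearest patterns, and the 2 members of each list with the smallest p. miR-3549, miR-322-5p, miR-322-3p, miR-542-3p and miR-3584-5p were added after values were seen. Probe positions are those of the array files (rn4), and sequences come from RefSeq (GRCr8).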

Additional observations from a re-analysis of the deposited data

How the results depend on the processing

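The 3 arms and their 2 differences were recomputed under 19 alternatives, and 4 of these 95 values moved by more than 1 SD between replicates: miR-193a-5p to 0.35 without scaling between arrays and to -0.085 with the normexp background, and miR-365-3p to 0.29 without scaling and to -0.042 with the 75th percentile over all probes. That count is no measure of stability, since many of the values did not or could not move. The filter on all 6 arrays, no raised floor, limma's trend and robust options and the replicate block left all of them unchanged. Scaling by a single factor per array cancels in the 2 differences. The shifts of miR-193a-3p from 0.31 to 0.58 or 0.14 stayed within 1 SD, which is wide for this arm. miR-193a-3p, the arm difference and the difference from miR-365-3p stayed above 0 in all 19. Leaving out 1 array gave 0.14 to 0.58 for miR-193a-3p, 0.04 to 0.17 for miR-193a-5p, 0.03 to 0.10 for miR-365-3p, 0.03 to 0.46 for the arm difference and 0.11 to 0.52 for the difference from miR-365-3p. An arm was called in 2 of the 19. These were miR-193a-3p without control array 3, where 29 of the 167 tested miRNAs were called, and 2 arms without scaling, where 51 were. Nothing is read from these calls, since the arms were chosen with this contrast known.

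The number of miRNAs called by limma, 10 as reported (5 higher, 5 lower), was 17 (8 higher, 9 lower) with quantile normalization, 15 (5 higher, 10 lower) with median scaling, 51 (50 higher, 1 lower) without scaling, 24 (1 higher, 23 lower) with the normexp background and 1 without a filter. With the 75th percentile over all probes it was 0, and 9 had an unadjusted p under 0.05. Leaving out 1 array gave 1 to 29: 29 without control array 3, 7 without control array 1, 5 without control array 2, 3 without IL-8 array 1 and 1 without either of the other IL-8 arrays. The cause was not tested.

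With the replicate number as a block 8 miRNAs were called and the arms' changes were the same, since each number holds both groups. Same-numbered arrays deviated together at r = 0.29, 0.33 and 0.09 across miRNAs. Of the control arrays, 2 of 3 correlated best with their own number, as did 2 of 3 IL-8 arrays. These few values do not settle whether the numbers pair the samples, and the reported fit left them unpaired. miR-193a-5p is limited by its signal, at 19.9 to 31.2 against a lowest detected signal of 12.3 to 17.1.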
